A study of Homo sapiens with 6 samples.

Results

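The core genes of the circadian clock were followed in LS 174T cells given propionate. The genes were ARNTL (whose product is BMAL1), CLOCK, PER1, PER2, PER3, CRY1, CRY2, NR1D1, NR1D2 and DBP, taken by symbol from the deposited tables of reads per gene. These 10 genes are among 24462 symbols in the tables. Each had a single line in every table, and all 10 had enough reads to enter the test, as did 13605 genes in all. LS 174T is a human colorectal adenocarcinoma line that secretes mucin and serves as a goblet cell model. The treated group received 4 mM propionate, a short-chain fatty acid made by gut bacteria, for 4 h (n = 3 libraries). The control group was the same line left untreated (n = 3 libraries). Both groups had been plated the night before in a serum-containing medium and carry no engineered change that the labels mention. Whether the 3 libraries of a group are separate cultures is not stated. The p-values therefore speak only of spread among libraries, part or all of which may be technical. The propionate libraries belong to a single time after treatment, and the labels give no time for the control libraries. A difference in the hour of collection, if there was one, cannot be told apart from treatment. The data give levels at collection and not the phase or amplitude of a rhythm.

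The clock is a loop of transcription that runs in nearly every cell. The activators BMAL1 and CLOCK bind E-box sequences as a pair and switch on the PER and CRY genes, whose proteins gather in the nucleus and block that pair. A second loop sets ARNTL itself, through the activating ROR receptors and the repressing receptors REV-ERBα (NR1D1) and REV-ERBβ (NR1D2), which compete for the same element. DBP is an E-box output whose protein acts on D-box sequences, and PER genes also take in outside signals through cAMP and glucocorticoid routes. In the intestine the clock is known to follow feeding time.

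Totals ran from 11645597 to 12746170 reads in propionate libraries and from 11603288 to 11921005 in control libraries. Levels are given in CPM (reads per 1000000 of a library's total, scaled by TMM factors), and the limit set by 3 reads was 0.235 to 0.259 CPM. All 12 colon and goblet markers examined were above 1 CPM, with summed levels of 5220 to 5930 CPM with propionate and 4510 to 5470 CPM in control. Endothelial markers summed to 0 CPM in the propionate libraries and to at most 0.175 CPM in control, with VWF, CDH5 and KDR at 0 in all libraries. For 6 leukocyte markers, of which 3 were above 1 CPM and CD3E was at 0, the sums were 23.9 to 28.4 CPM with propionate and 32.4 to 36.2 CPM in control. For 3 neuronal markers, 1 of them above 1 CPM, the sums were 1.01 to 2.25 CPM with propionate and 2.48 to 5.16 CPM in control. For 6 fibroblast markers, 2 of them above 1 CPM and DCN at 0, they were 6.17 to 7.98 CPM with propionate and 3.58 to 6.99 CPM in control. The part of these differences in the results below was not tested. As in any bulk measurement, fewer cells with a transcript and less of it per cell cannot be told apart.

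The promoters of the 5 clock genes that rose, PER1, DBP, ARNTL, PER2 and CRY1, are shown because the listed factors act at such sequences. Each stretch is 300 bases, from 250 before to 50 after a RefSeq transcript start (GRCh38.p14), read along the gene's own strand. Capitals mark an E-box (CACGTG), its variant CACGTT, the D-box TTANGTAA or TNGGTCA, on either strand, with N for any base. TNGGTCA is a loose form of the core of the element shared by ROR and REV-ERB receptors.
PER1, chr17:8152355-8152654, minus strand: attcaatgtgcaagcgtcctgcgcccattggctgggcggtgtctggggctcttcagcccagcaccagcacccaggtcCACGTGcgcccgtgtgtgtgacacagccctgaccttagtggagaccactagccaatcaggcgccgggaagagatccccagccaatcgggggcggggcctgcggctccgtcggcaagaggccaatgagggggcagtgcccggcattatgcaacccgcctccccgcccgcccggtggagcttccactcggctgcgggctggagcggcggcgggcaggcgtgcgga
DBP, chr19:48637330-48637629, minus strand: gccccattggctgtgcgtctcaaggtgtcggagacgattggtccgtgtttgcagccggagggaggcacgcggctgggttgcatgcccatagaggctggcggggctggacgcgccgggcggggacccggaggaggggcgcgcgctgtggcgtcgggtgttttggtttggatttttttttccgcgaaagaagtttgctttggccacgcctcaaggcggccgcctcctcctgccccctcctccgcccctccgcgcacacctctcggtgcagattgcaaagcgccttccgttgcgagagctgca
ARNTL, chr11:13277540-13277839, plus strand: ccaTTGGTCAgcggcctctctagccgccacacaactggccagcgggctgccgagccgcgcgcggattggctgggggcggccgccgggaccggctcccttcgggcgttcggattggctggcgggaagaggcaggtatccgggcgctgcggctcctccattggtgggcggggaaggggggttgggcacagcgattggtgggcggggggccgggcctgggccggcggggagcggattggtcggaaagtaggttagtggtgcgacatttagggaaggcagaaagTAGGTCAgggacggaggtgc
PER2, chr2:238288561-238288860, minus strand: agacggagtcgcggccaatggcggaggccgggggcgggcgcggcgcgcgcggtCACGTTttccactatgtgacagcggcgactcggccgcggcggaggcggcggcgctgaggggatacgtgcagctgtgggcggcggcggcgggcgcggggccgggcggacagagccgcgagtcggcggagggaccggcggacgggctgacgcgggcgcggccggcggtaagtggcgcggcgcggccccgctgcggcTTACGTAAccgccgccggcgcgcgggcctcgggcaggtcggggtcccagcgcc
CRY1, chr12:107093500-107093799, minus strand: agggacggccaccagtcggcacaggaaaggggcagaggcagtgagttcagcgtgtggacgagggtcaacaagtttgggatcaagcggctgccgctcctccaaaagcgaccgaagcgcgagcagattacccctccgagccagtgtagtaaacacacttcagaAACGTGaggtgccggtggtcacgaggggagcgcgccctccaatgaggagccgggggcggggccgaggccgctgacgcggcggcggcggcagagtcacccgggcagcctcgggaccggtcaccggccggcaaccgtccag
The PER1 window held an E-box whose first base lay 173 bases before the start. The CRY1 and PER2 windows each held the variant, 89 and 197 bases before the start, and PER2 also held a D-box 3 bases before it. The ARNTL window shown matched the loose receptor core at 247 bases before the start (TTGGTCA) and at base 31 after it (TAGGTCA). The window of the other annotated ARNTL start, not shown, held none of the listed letters. The DBP window held none of the listed letters, which says only that they are not in this stretch.

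All 10 genes matched RefSeq, ARNTL under the name BMAL1, with 15 such windows between them because 5 genes have a pair of annotated starts. An E-box was in 2 of the 15 windows (13.3%, against 7.26% of 35116 promoter windows of all genes), those of PER1 and of the downstream start of NR1D2. The variant was in 5 windows (33.3%, against 5.34%), the D-box in 3 (20%, against 2.18%) and the loose receptor core in 4 (26.7%, against 9.45%). Clock genes that were not called held these motifs too. The variant was also in CLOCK, CRY2 and NR1D1, and the D-box in PER3 and NR1D2. CLOCK, CRY2 and NR1D2 also held the loose receptor core. The full cAMP response element TGACGTCA was in none of the 15 (against 1.85%), while its shorter core TGACG, not capitalised above, was in 7 (46.7%, against 24.6%). No 2 matches of different motifs overlapped. These shares are counts over few windows, some of 1 gene, and a match is not a bound site.

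Propionate cells had more PER1, DBP, ARNTL, PER2 and CRY1 transcript than control cells, and none of the 10 genes was called lower. PER1 stood out in size at 3.03-fold, followed by DBP at 2.07-fold and ARNTL at 1.81-fold, while PER2 and CRY1 rose 1.33-fold and 1.25-fold. CLOCK, PER3, CRY2, NR1D1 and NR1D2 did not pass the test. Thus 5 of 10 were higher (quasi-likelihood test of edgeR, with an adjusted p under 0.05 after Benjamini-Hochberg adjustment over all genes tested), where 17.2% of all 13605 genes tested were higher. None was lower, where 17.0% of genes were. The count of lower clock genes was also 0 by DESeq2 and by limma-voom, while at an unadjusted p under 0.05 it was 1, NR1D2. The median log2 fold change of the 10 genes was 0.365, beside -0.00689 over all genes tested. The 10 genes were chosen with earlier results of these data known, so these counts and medians are no independent evidence of a direction. In 5 of them the 3 propionate libraries all lay above the 3 controls, as in 22.4% of all genes, and in 1, NR1D2, all lay below, as in 22.7%. The 5 rises were not equally firm: PER1 and DBP were called without any 1 of the 6 libraries, whereas ARNTL, PER2 and CRY1 lost the call without certain libraries, named with each gene. The count of higher genes was 3 without propionate library 3, and also 3 without control library 2. By DESeq2 the count was 3 as well, since PER2 and CRY1 were not called, and by limma-voom it was 5.

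**Figure D1:**
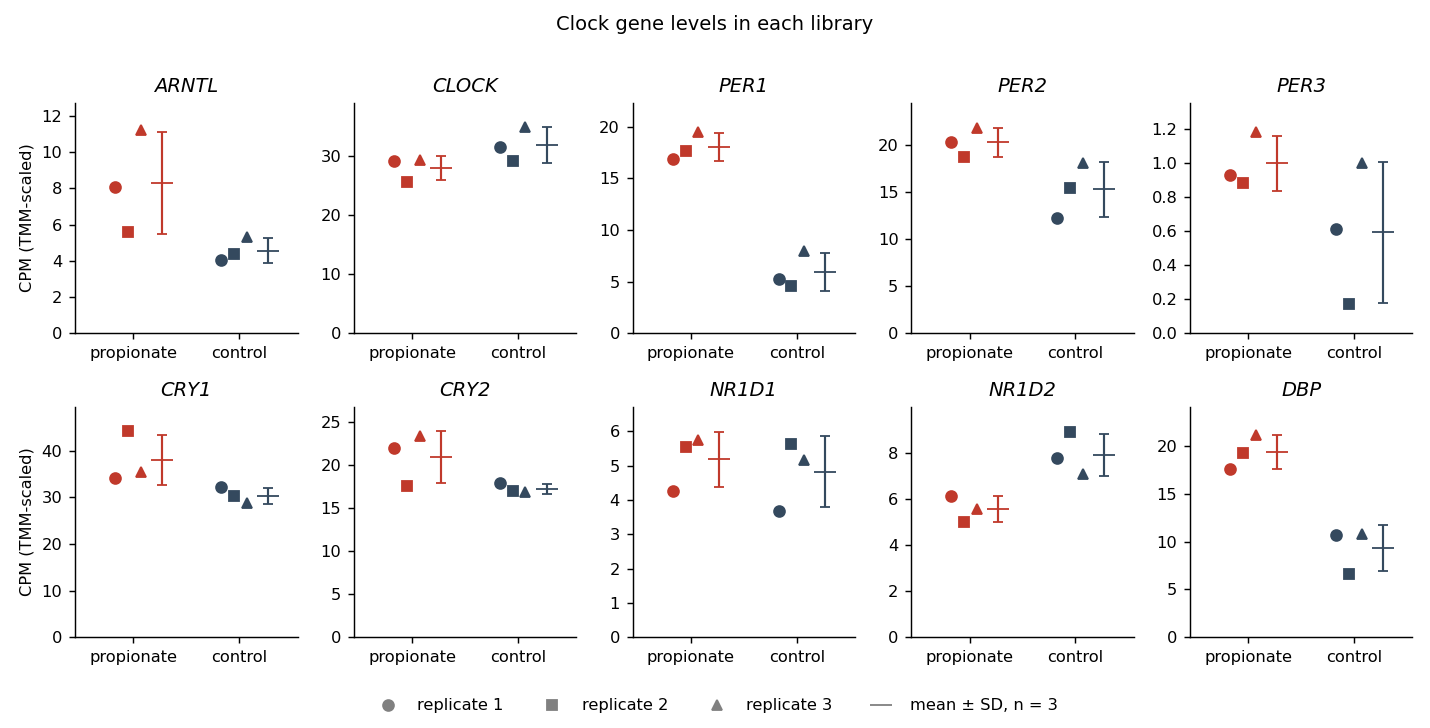
Level of each of the 10 clock genes in CPM (vertical axes, each from 0) in every library, with propionate libraries left and control libraries right, points for libraries and whiskers for the mean ± SD (n = 3). The 3 PER1 points lie between 16.9 and 19.5 CPM with propionate and between 4.53 and 7.99 CPM in control, and the groups overlap in CLOCK, PER3, CRY2 and NR1D1.

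Of the activator pair, ARNTL was called and CLOCK was not. ARNTL, which encodes BMAL1, had 8.06, 5.62 and 11.2 CPM in propionate libraries 1 to 3, against 4.02, 4.36 and 5.33 CPM in control libraries 1 to 3. Every propionate library was above every control, with propionate library 2 close to control library 3 and propionate library 3 the highest. The means were 8.31 ± 2.82 CPM with propionate and 4.57 ± 0.679 CPM in control (SD, n = 3 each), a log2 fold change of 0.86 (SE 0.245, edgeR adjusted p = 0.0107). In reads this was 307 with propionate and 161 in control. The propionate libraries varied more than counting alone gives, with a variance 11.7 times that of counting error, beside 1.19 times in control. Without propionate library 3 the log2 fold change was 0.58 and the call was lost (adjusted p = 0.0968), and it held without any other single library. Over its 16 alternatives the adjusted p ran from 0.000371 to 0.0968.

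CLOCK, whose protein is the partner of BMAL1 on DNA, had 29.1, 25.6 and 29.4 CPM in the propionate libraries, against 31.5, 29.1 and 35.0 CPM in the controls. The groups overlapped at the edge, since propionate libraries 1 and 3 lay at or just above control library 2. The log2 fold change was -0.19 (SE 0.115, edgeR adjusted p = 0.225), and no alternative called it. The log2 ratio of ARNTL to CLOCK within a library was -1.74 ± 0.37 with propionate and -2.68 ± 0.13 in control, a difference of 0.94 with no overlap. The exact two-sided permutation p was 0.1, the smallest that 3 against 3 libraries allow (0.16 adjusted over the 8 gene pairs compared in this way).

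The relatives that can stand in for these proteins were not called. NPAS2, which can replace CLOCK, had 26.3, 23.8 and 24.1 CPM with propionate and 21.3, 21.5 and 19.6 CPM in control. All its propionate libraries were above the controls, by 0.25 on the log2 scale (edgeR adjusted p = 0.111, unadjusted p = 0.0483). The ratio of CLOCK to NPAS2 was 0.18 ± 0.10 with propionate and 0.60 ± 0.20 in control on the log2 scale (difference -0.43, exact permutation p = 0.1, adjusted 0.16). ARNTL2, the paralog of ARNTL, averaged 10.5 ± 0.353 CPM with propionate and 10.8 ± 2.4 CPM in control (SD, n = 3 each; edgeR adjusted p = 0.898). The log2 ratio of ARNTL to ARNTL2 was -0.38 ± 0.46 with propionate and -1.14 ± 0.12 in control (difference 0.77, exact permutation p = 0.1, adjusted 0.16).

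Among the period genes, whose products carry the repressing complex, PER1 changed most. It had 16.9, 17.6 and 19.5 CPM in the propionate libraries, against 5.24, 4.53 and 7.99 CPM in the controls. The lowest propionate library was more than double the highest control, and the 3 propionate libraries lay close together. The means were 18.0 ± 1.37 CPM with propionate and 5.92 ± 1.83 CPM in control (SD, n = 3 each), a log2 fold change of 1.60 (SE 0.19, edgeR adjusted p = 3.16e-06). The reads behind this were 218, 219 and 231 with propionate and 60, 53 and 96 in control. By pairs of libraries with the same number, PER1 was 3.22-fold, 3.88-fold and 2.44-fold higher. Its adjusted p stayed at or below 4.3e-05 in all 16 alternatives, and its log2 fold change ranked 268 from the top of the genes tested.

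PER2 had 20.4, 18.8 and 21.8 CPM with propionate and 12.3, 15.5 and 18.1 CPM in control. The groups did not overlap, but propionate library 2 lay only just above control library 3. The log2 fold change was 0.41 (SE 0.149, edgeR adjusted p = 0.0416). The call was lost without propionate library 1 (adjusted p = 0.0928), propionate library 3 (0.123), control library 1 (0.203) or control library 2 (0.0815), and in DESeq2 the adjusted p was 0.0685. Over its alternatives the adjusted p of PER2 ran from 0.00889 to 0.203. PER3, whose loss leaves the mouse clock largely running, was rarely read, with 12, 11 and 14 reads with propionate and 7, 2 and 12 in control. Its groups overlapped, and the ratio of summed reads over library totals was 1.68 (exact binomial 95% interval 0.96 to 3.03, counting error only; edgeR adjusted p = 0.324).

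Ratios within a library compare the PER genes with each other. The log2 ratio of PER1 to PER2 was -0.17 ± 0.09 with propionate and -1.32 ± 0.30 in control, a difference of 1.15 with no overlap (exact permutation p = 0.1, adjusted 0.16). The ratio of PER2 to PER3 was 3.80 with propionate and 3.91 in control on the same scale, with overlapping libraries (difference -0.11, exact permutation p = 1). Between these, PER1 to PER3 was 3.63 ± 0.07 with propionate and 2.59 ± 0.28 in control (difference 1.04, exact permutation p = 0.1), although the difference was 0.75 when 0.1 CPM in place of 0.5 CPM was added before the ratio was taken.

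The cryptochromes are the strong repressors of the pair and changed little. CRY1 had 34.2, 44.1 and 35.4 CPM with propionate and 32.1, 30.2 and 28.7 CPM in control. All propionate libraries were above the controls, and propionate library 2 stood well above the other two. The log2 fold change of CRY1 was 0.32 (SE 0.116, edgeR adjusted p = 0.0375). Without propionate library 2 it was 0.20 and not called (adjusted p = 0.226), nor was it called without control library 2 (0.0841), without control library 3 (0.109) or by DESeq2 (0.0603), and its adjusted p ran from 0.000169 to 0.226 over the alternatives. CRY2 had 21.9, 17.5 and 23.3 CPM with propionate and 17.9, 17.0 and 16.8 CPM in control. Here propionate library 2 fell among the controls while the other two were above them (log2 fold change 0.28, SE 0.138, edgeR adjusted p = 0.127), and without that library CRY2 was called (log2 fold change 0.39, adjusted p = 0.0445, in a range of 0.0445 to 0.435 over the alternatives). Propionate library 2 was thus the highest for CRY1 and the lowest for CRY2, and the log2 ratio of CRY1 to CRY2 spread over 0.84 ± 0.40 with propionate and 0.80 ± 0.04 in control (difference 0.05, exact permutation p = 1).

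**Figure D2:**
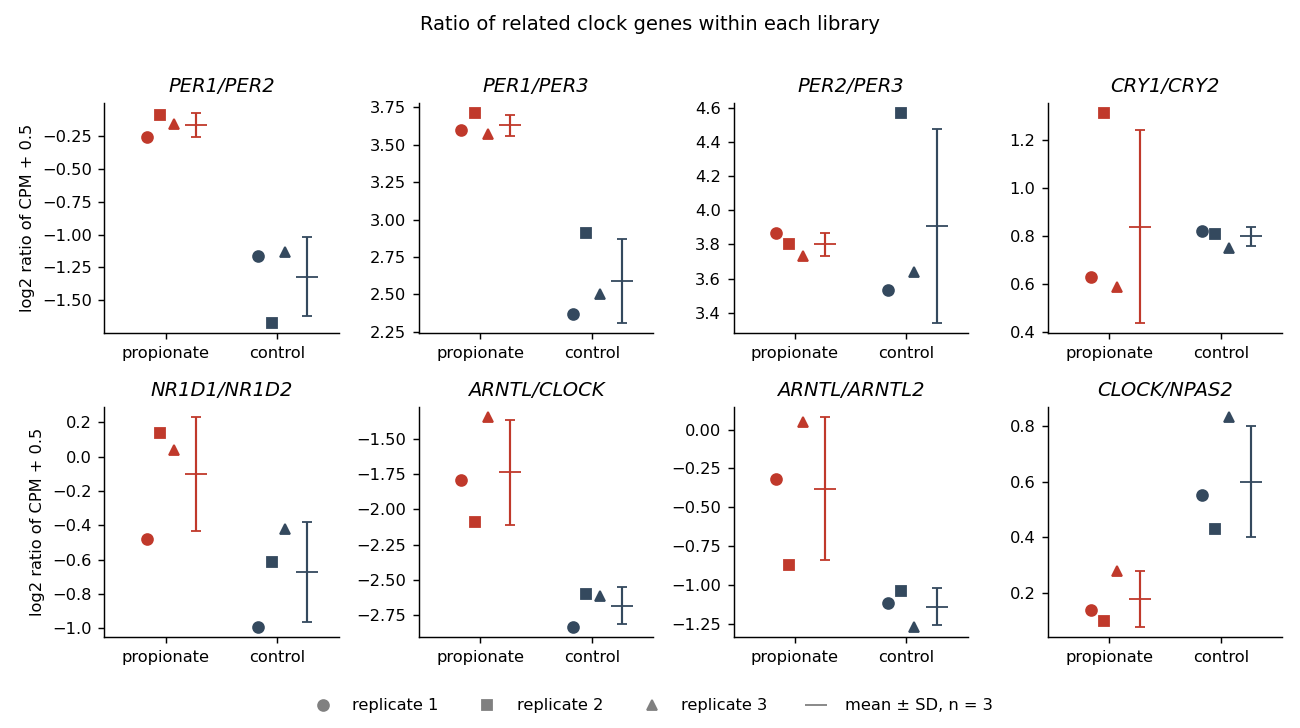
Log2 ratio of related clock genes within each library (vertical axis, log2 of CPM + 0.5 over CPM + 0.5), propionate libraries left and control libraries right for each of the 8 pairs. The propionate points lie all above the controls for PER1/PER2, PER1/PER3, ARNTL/CLOCK and ARNTL/ARNTL2 and all below for CLOCK/NPAS2.

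Of the REV-ERB repressors of ARNTL, NR1D1 had 4.26, 5.54 and 5.75 CPM with propionate and 3.67, 5.64 and 5.16 CPM in control. The groups overlapped throughout, with a log2 fold change of 0.10 (SE 0.241, edgeR adjusted p = 0.786). NR1D2 had 6.12, 4.98 and 5.58 CPM with propionate and 7.77, 8.89 and 7.08 CPM in control. It was the only clock gene of the 10 whose propionate libraries all lay below the controls, yet it missed the threshold (log2 fold change -0.51, SE 0.199, edgeR adjusted p = 0.0556), resting on 207 reads with propionate and 278 in control. With the replicate number as a block it passed, at an adjusted p of 0.0359. Removing the GC trend of each library gave a log2 fold change of -0.35 and an adjusted p of 0.19, and these adjusted p-values are the ends of its range over the alternatives. The log2 ratio of NR1D1 to NR1D2 was -0.10 ± 0.33 with propionate and -0.67 ± 0.29 in control (difference 0.58, exact permutation p = 0.2, adjusted 0.267).

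DBP, the D-box activator that the E-box pair drives, had 17.6, 19.3 and 21.2 CPM with propionate and 10.7, 6.58 and 10.8 CPM in control. All propionate libraries were well above all controls, and control library 2 was the lowest of the 6. The means were 19.4 ± 1.81 CPM with propionate and 9.35 ± 2.4 CPM in control (SD, n = 3 each), a log2 fold change of 1.05 (SE 0.175, edgeR adjusted p = 0.000124). Its adjusted p was at most 0.000903 when any 1 library was left out, and all 16 alternatives called it.

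**Figure D3:**
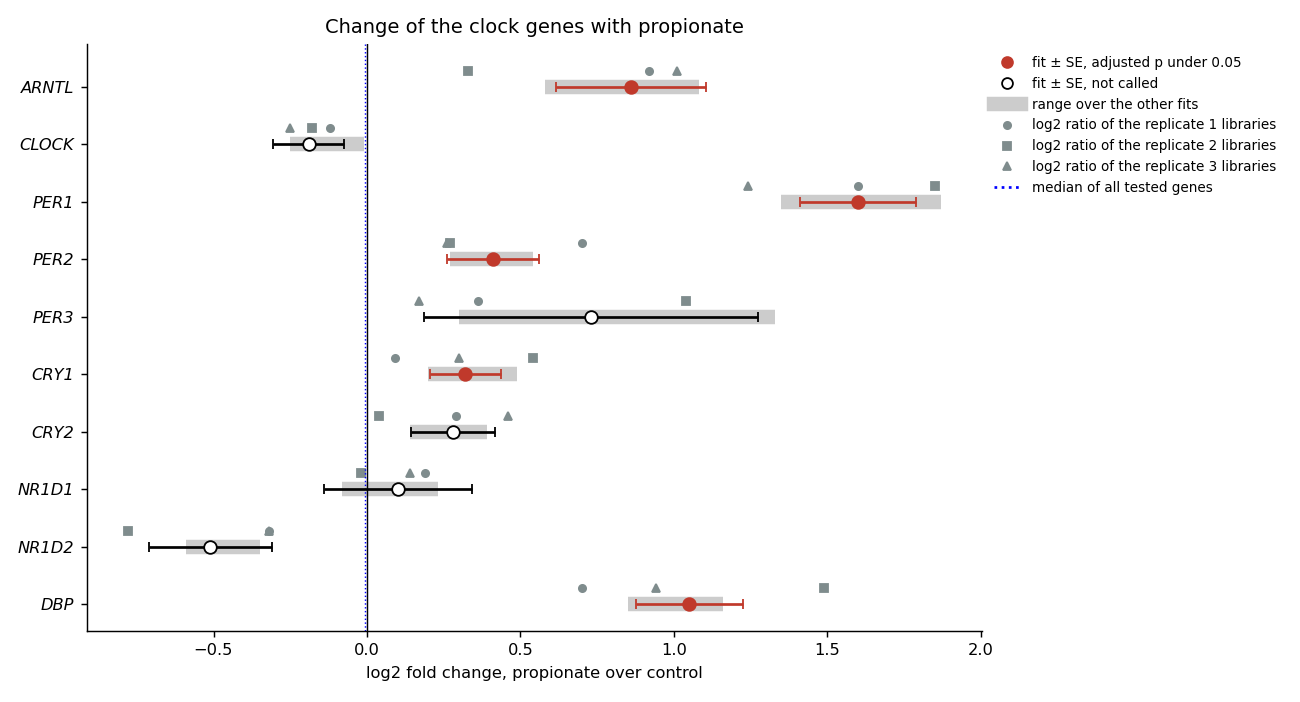
Log2 fold change of propionate over control for each of the 10 clock genes (horizontal axis), with the fitted value and its SE (filled where called), a grey band for the range over the alternatives, small marks for the ratio of each pair of same-number libraries and a dotted line at the median of all tested genes. PER1 (1.60) and DBP (1.05) stay above 0 by the widest margins, and NR1D1 (0.10) lies on both sides of 0 over its alternatives.

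Some of the 10 genes overlap a neighbour on the other strand, and whether the counting used strand is not stated. In GENCODE release 29, DBP shares 661 exonic bases with SPHK2, a sphingosine kinase gene on the opposite strand, in the last exons of both. SPHK2 was also higher, at 57.4 ± 2.18 CPM with propionate and 44.6 ± 3.8 CPM in control (1.29-fold, edgeR adjusted p = 0.00715; SD, n = 3 each). That fold change was smaller than the 2.07-fold of DBP, and it was not called once the GC trend was removed (edgeR adjusted p = 0.364). In CPM, the difference between group means was larger for SPHK2 than for DBP, which had 19.4 CPM with propionate and 9.35 CPM in control. NR1D1 shares 263 bases with THRA, a thyroid hormone receptor gene, again in the last exons. THRA had 89.7, 105.4 and 105.4 CPM with propionate and 77.0, 93.6 and 84.1 CPM in control and was not called (log2 fold change 0.24, edgeR adjusted p = 0.0623, and 0.00297 with the replicate block). With the GC trend removed, the log2 fold change of THRA was 0.05 (edgeR adjusted p = 0.731). PER3 shares 868 bases with UTS2, which had 2 reads in all, both in control library 1. CLOCK shares 76 bases with TMEM165, which had a log2 fold change of -0.02 (edgeR adjusted p = 0.946). Reads from such stretches cannot be assigned to a strand, and their part in the DBP and NR1D1 values was not tested.

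Transcript GC content moved with the calls over all genes: when the tested genes were put into 5 equal bins of GC content, 33% in the highest bin were higher and 9.17% lower, and 7.91% in the lowest bin were higher and 23.1% lower. PER1 (62.7% GC) and NR1D1 (59.5%) lie in the highest bin, and CLOCK, CRY1 and NR1D2 lie in the lowest. With each library's GC trend removed, the log2 fold change of PER1 was 1.35 (edgeR adjusted p = 3.31e-05), that of DBP 0.90 (adjusted p = 0.000668) and that of ARNTL 0.97 (adjusted p = 0.00393). CRY1 was larger at 0.49 (adjusted p = 0.00331), PER2 was no longer called at 0.37 (adjusted p = 0.0606), and CLOCK was at -0.02 (adjusted p = 0.932).

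The tested genes above 10 CPM whose pattern over the 6 libraries lay closest to PER1 were PLXNA3, a semaphorin receptor gene, GRAMD1A, a sterol transfer protein gene, and ARID3A, a DNA-binding protein gene. Their root mean square differences from PER1 in centred log2 CPM over the 6 libraries were 0.121, 0.157 and 0.194, the smallest among 9283 genes compared. Their own log2 fold changes were 1.48, 1.77 and 1.76.

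Beyond the 10 genes, 66 others of the clock pathway were listed by role, and 58 were tested. Of these 14 were higher and 13 lower, where 17.2% of all genes tested were higher and 17.0% lower, and their median log2 fold change was 0.0287. The counts for single roles below rest on few genes each, are read against the same 17.2% and 17.0%, and were not tested against each other or against other genes. Of the D-box factors, HLF and NFIL3 rose and TEF was not called. HLF, which activates D-box genes like DBP, had 5.89, 5.94 and 6.17 CPM with propionate and 4.72, 3.76 and 2.91 CPM in control, 1.58-fold higher (edgeR adjusted p = 0.038). Its groups did not overlap, but the call was lost without any propionate library, without control library 2 or without control library 3 (adjusted p between 0.0727 and 0.152). DESeq2 did not call HLF either, and it was called in 10 of its 16 alternatives. NFIL3, which represses the same genes, had 18.1, 18.9 and 17.8 CPM with propionate and 10.9, 13.1 and 14.4 CPM in control, 1.42-fold higher (edgeR adjusted p = 0.0101, and 0.0597 without control library 1). An activator and the repressor of D-boxes thus both stood above control. TEF averaged 6.48 ± 2.2 CPM with propionate and 5.27 ± 0.911 CPM in control (edgeR adjusted p = 0.382; SD, n = 3 each).

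USP2, a deubiquitinase that acts on clock proteins, had the largest rise of the 58 tested genes, with 47, 39 and 52 reads with propionate and 0, 3 and 7 in control. The ratio of its summed reads over library totals was 13.2 (exact binomial 95% interval 6.96 to 28.1, counting error only; edgeR adjusted p = 2.74e-05). Its fitted log2 fold change of 3.66 became 4.73 without control library 3 and 3.11 without control library 1. BTRC and FBXW11, the paired ligase subunits that target PER proteins, and USP7 were not called (edgeR adjusted p = 0.329, 0.675 and 0.544), and FBXL21 had no read in any library.

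Of 9 genes for kinases of PER and CRY or their subunits, 2 were higher and 2 lower, beside 17.2% and 17.0% of all genes. DYRK1A, which phosphorylates CRY2, had 24.5, 20.8 and 17.4 CPM with propionate and 42.6, 39.5 and 42.3 CPM in control, 1.98-fold lower with no overlap (edgeR adjusted p = 5.68e-06). GSK3B averaged 31.2 ± 2.48 CPM with propionate and 46.3 ± 2.71 CPM in control (SD, n = 3 each), 1.48-fold lower (edgeR adjusted p = 0.00033). CSNK2A2 was 1.33-fold higher (edgeR adjusted p = 0.00867, and 0.0619 without control library 1). CSNK1D, the casein kinase that times PER turnover, was 1.19-fold higher (edgeR adjusted p = 0.0255). The CSNK1D call was lost when propionate library 1 or 2 or any control library was left out, at adjusted p-values of 0.0541 to 0.0968. It was also lost after GC correction (0.322).

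Of 7 coactivators of the BMAL1 and CLOCK pair 4 were lower and 1 higher, beside 17.0% and 17.2% of all genes. Among the lower genes THRAP3, named here after its values were seen, was near the threshold (edgeR adjusted p = 0.0459) and was called in 5 of its 16 alternatives. CREBBP and EP300, related histone acetyltransferases, fell 2.13-fold and 1.88-fold (edgeR adjusted p = 1.31e-07 and 4.59e-07). The CREBBP level was 36.6 ± 1.08 CPM with propionate and 78.1 ± 6.85 CPM in control, and the EP300 level was 71.7 ± 6.6 CPM with propionate and 134.5 ± 7.44 CPM in control (SD, n = 3 each). MED1, a Mediator subunit, had a log2 fold change of -0.33 (edgeR adjusted p = 0.00473), and the histone methyltransferase KMT2A rose by 0.44 on that scale (adjusted p = 0.000149). Of 12 partners and corepressors of the PER complex 4 were lower and 2 higher, beside the same shares of all genes. DDX5, an RNA helicase, was 1.55-fold lower (edgeR adjusted p = 4.22e-06), TIMELESS 1.37-fold lower (0.000226) and the RNA-binding protein SFPQ 1.31-fold lower (0.000573). HDAC3, the deacetylase that works with REV-ERB proteins, was 1.36-fold higher (edgeR adjusted p = 0.000785), and CHD4 rose by 0.37 on the log2 scale (0.000834).

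**Figure D4:**
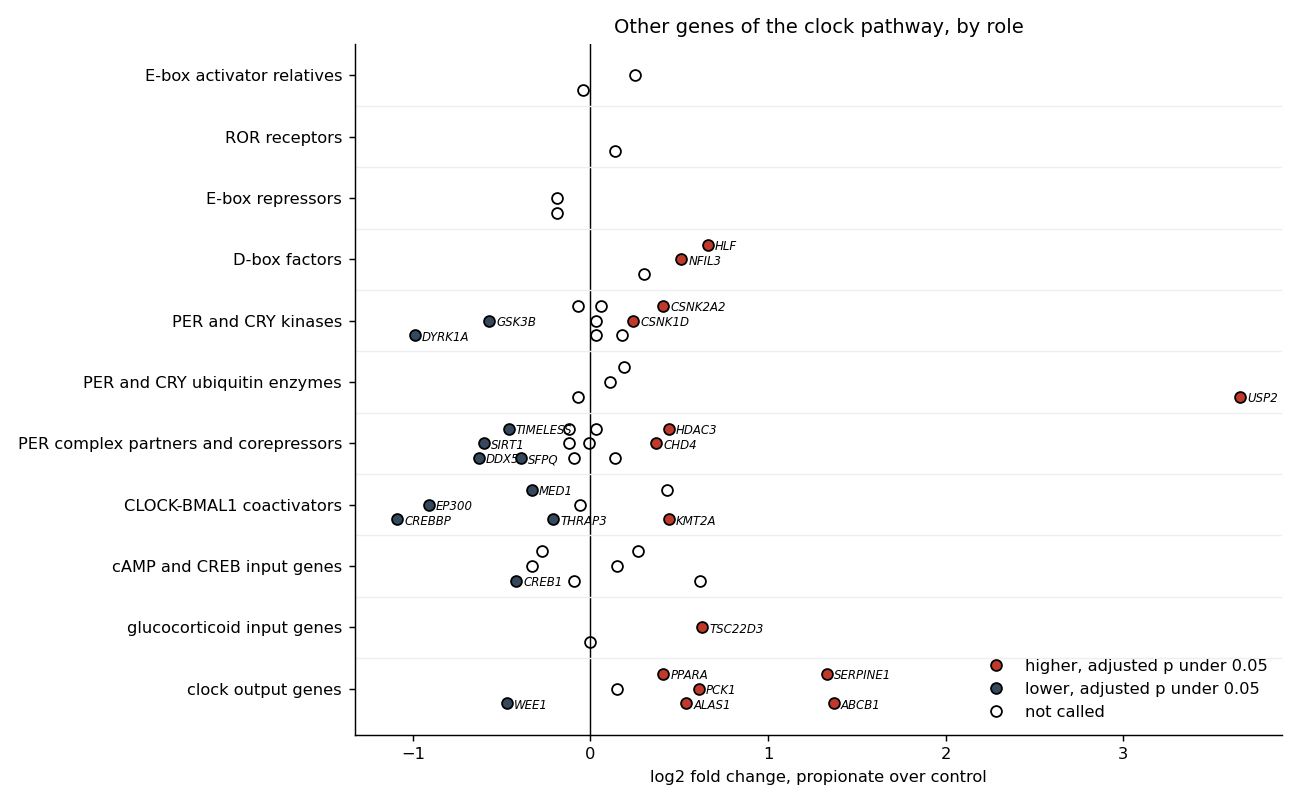
Log2 fold change of propionate over control (horizontal axis) for tested genes of the wider clock pathway that are reported here, grouped by role, with called genes marked. USP2 (3.66) and ABCB1 (1.37) lie far right, and CREBBP (-1.09) and DYRK1A (-0.99) lie far left.

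The RORA receptor and the E-box repressors, which work beside the core loop, were not called. RORA, an activator of ARNTL, averaged 4.69 ± 0.452 CPM with propionate and 4.27 ± 0.652 CPM in control (edgeR adjusted p = 0.701; SD, n = 3 each), and RORB had no read. The E-box repressors BHLHE40 and BHLHE41 (DEC1 and DEC2) each had a log2 fold change of -0.19 (edgeR adjusted p = 0.696 and 0.779), and CIART had 5 reads with propionate and 9 in control.

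Inputs to PER1 were examined because cAMP and glucocorticoids both raise it in other cells. In the cAMP and CREB list 1 of 7 tested genes was lower and none higher (edgeR, beside 17.0% and 17.2% of all genes). None was higher at an unadjusted p under 0.05 or by limma-voom. DESeq2, with its own filter over all 9 listed genes, called 1 higher, which need not be among the 7. The gene lower by edgeR, CREB1, averaged 31.7 ± 1.83 CPM with propionate and 42.5 ± 2.69 CPM in control (SD, n = 3 each), 1.34-fold lower (edgeR adjusted p = 0.00364, but 0.0665 after GC correction). NR4A3, a cAMP-induced nuclear receptor gene with too few reads for the edgeR test and named here after its values were seen, had 4, 21 and 6 reads with propionate and 0, 2 and 1 in control. All its propionate libraries were above the controls, propionate library 2 by far the most, and the ratio of summed reads over library totals was 9.88 (exact binomial 95% interval 3.08 to 50.5, counting error only). Of the glucocorticoid list, TSC22D3 (GILZ) rose 1.55-fold, with 38.6 ± 1.72 CPM with propionate and 24.9 ± 5.78 CPM in control (edgeR adjusted p = 0.00138). FKBP5, another glucocorticoid target, was at 36.0 CPM with propionate and 35.9 CPM in control (adjusted p = 0.991). The receptor gene NR3C1 had 7 reads with propionate and 1 in control, too few to test (ratio 6.69, exact binomial 95% interval 0.859 to 301), and all 7 were in propionate library 2.

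Of 7 tested genes known as clock outputs in gut or liver, 5 were higher and 1 lower, beside 17.2% and 17.0% of all genes. ABCB1, the drug efflux pump of the gut lining, had 31.3, 27.5 and 23.8 CPM with propionate and 13.7, 10.3 and 8.08 CPM in control, 2.58-fold higher with no overlap (edgeR adjusted p = 4.78e-06). PCK1, an enzyme of glucose synthesis, averaged 52.0 ± 5.66 CPM with propionate and 34.1 ± 6.91 CPM in control (SD, n = 3 each), 1.52-fold higher (edgeR adjusted p = 0.0011). ALAS1, the first enzyme of heme synthesis, was 1.45-fold higher (adjusted p = 0.00123). WEE1, a kinase that delays entry into mitosis and an E-box target in mouse liver, was 1.38-fold lower, at 22.5 ± 2.01 CPM with propionate and 31.0 ± 2.24 CPM in control (adjusted p = 0.00463). The list was written with these data already analysed, so its count is no independent evidence of a direction.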

How the data were processed

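RNA from LS 174T cells was sequenced after library preparation with a Lexogen QuantSeq kit from 500 ng of total RNA, per the labels' protocols. Kits of that name sequence the 3′ ends of transcripts with poly(A) tails, but the catalogue number given beside it may be that of another kit, so where reads fall along a transcript is uncertain, also for the overlaps in last exons. What the authors deposited is 1 table per library of whole-number read counts, not normalized, by gene symbol. Bowtie2, edgeR, hg19 and GRCh37 are named in the submitters' processing notes, with no version. For the counter of reads, the use of strand and the annotation, nothing is given in the sources used here. Each table held 25737 lines with 24462 symbols, and lines of the same symbol were summed (286 symbols, none a clock gene studied here). No molecular identifiers are recorded, so intervals and the 3-read limit cover counting error only. Libraries of a group differed by more than sampling noise (chi-square per degree of freedom 6.01 to 8.85).

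The test was that of edgeR 4.0.16 in R 4.3.3, with filterByExpr, TMM, quasi-likelihood F test, 3 propionate against 3 control libraries, no covariate, two-sided, Benjamini-Hochberg over 13605 genes, threshold 0.05. Fold changes used a prior count of 0.125. Ratios of gene pairs used CPM + 0.5. GC content came from GENCODE release 29 transcripts (22583 symbols matched), fitted per library by splines with 4 degrees of freedom. Promoters came from RefSeq. The fit was checked on made-up counts with known answers.

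Replicate numbers come from the titles. Over genes above 10 CPM, the deviations from the group mean of libraries with the same number had correlations of 0.24, 0.396 and 0.442, and those of unlike number -0.354 to 0.0101. Deviations within a group cancel out, so positive values for like numbers come with negative values for unlike ones on average. The numbers were used to pair libraries for fold changes by pair and as the replicate block of an alternative fit. The main test did not use this pairing. That like numbers mark pairs rests on the titles and these correlations, without a label that names a shared day or culture. Other alternatives were scaling, filters on low counts, DESeq2 1.42.0, limma-voom (limma 3.58.1), the GC trend, a threshold of 0.01 and leaving out each library.

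The clock genes and the role lists were chosen with earlier results of these data known. Named besides them were genes overlapping them on the opposite strand, all genes of role lists with 6 or fewer members, the 3 with the smallest p per direction of longer lists, and the 3 genes above 10 CPM most like PER1. Results of some genes that this rule selects are not reported here.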

Additional observations from a re-analysis of the deposited data

How the results depend on the processing

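The count of higher clock genes was 5 and ran from 3 (without propionate library 3 or control library 2) to 5 when a library was left out. It was 3 by DESeq2 and 2 at a threshold of 0.01, where PER1 and DBP passed. The count of lower clock genes was 0 and became 1, NR1D2, with the replicate block. Over 169 values of single clock genes under an alternative, 150 kept their direction and their side of the threshold, 14 fell short of it, 2 newly passed and 3 changed sign, and the block ended no call. The 3 were of NR1D1, uncalled throughout: -0.08 with the GC trend removed, -0.07 with the block and GC together, and -0.06 without control library 1 (range -0.06 to 0.23 when a library was left out). Counts of the wider pathway ran from 10 to 16 higher and 12 to 15 lower. Among the other named genes 19 of 629 values changed sign, all of uncalled genes: with the GC trend removed ARNTL2 was 0.11 (0.12 with the block), USP7 0.02 (0.02) and TMEM165 0.08 (0.07). By scaling, TMEM165 was 0.01 (upper quartile) and 0.00 (library totals). Leaving out each library gave ranges of -0.20 to 0.08 for TMEM165, -0.13 to 0.16 for ARNTL2, -0.59 to 0.16 for BHLHE41, -0.02 to 0.28 for FBXW11 and -0.08 to 0.09 for FKBP5, which was -0.00 with every gene of at least 1 read kept. The cause of these changes was not tested. The median log2 fold change of all genes was -0.00689 with TMM and -0.00213 to 0.018 with the other scalings. PER3, with 37 reads with propionate and 21 in control, is limited by depth.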
